A study of Mus musculus with 6 samples.

Results

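The nicotinic acetylcholine receptor of skeletal muscle and the proteins that gather it under the motor nerve ending were followed in a calf muscle, the gastrocnemius, in young and aged mice. The 10 genes were listed by symbol for their place at the neuromuscular junction, with earlier results of these data known. They were the receptor subunits Chrna1, Chrnb1, Chrnd, Chrne and Chrng, and the clustering genes Agrn, Lrp4, Musk, Dok7 and Rapsn. Every probe set that the platform's gene table maps to exactly 1 of these symbols was taken, dim ones included, which gave 14 of the 45037 probe sets other than controls, and 10 of the 18193 genes with a probe set of their own. Chrng had 3 probe sets, Agrn and Dok7 had 2 each, and the other 7 genes had 1. The young group held 3 arrays (replicates 1, 2 and 3) and the aged group 3 (replicates 51, 52 and 53), all from total RNA of whole gastrocnemius of male C57B1/6 mice labelled as normal in karyotype, with no treatment or transgene named. The labels do not state the age of either group in months. Nothing in the labels ties each array to an animal of its own, and p-values therefore reflect the spread between these samples alone, which may be technical.

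At the neuromuscular junction acetylcholine released by the motor axon opens a receptor made of alpha, beta and delta subunits with either a gamma subunit, in fetal muscle, or an epsilon subunit, in adult innervated muscle. Agrin from the nerve binds Lrp4 on the muscle fibre, Lrp4 activates the receptor tyrosine kinase Musk, Dok7 keeps Musk active from inside the cell, and rapsyn ties the receptors together. In innervated adult fibres most of these genes, the fetal gamma subunit aside, are transcribed mainly by the few nuclei under the synapse. When a fibre loses its nerve, nuclei along its whole length transcribe receptor subunits again, gamma among them, together with Musk and the myogenic factor Myog, so higher levels of these transcripts are widely used as a sign of denervation.

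No gene of the group passed the test for a difference between aged and young muscle. With limma and Benjamini-Hochberg adjustment over all 45037 probe sets, 0 of the 14 probe sets and 0 of the 10 genes reached an adjusted p of 0.05, and at an unadjusted p under 0.05 there were also 0 of 14. Across the array 265 probe sets passed (0.588%), at an unadjusted p under 0.05 there were 3533 (7.84%), and 196 of 18193 genes had a probe set that passed (1.08%), or 0.984% by the brightest probe set of each gene. The smallest adjusted p among the 14 was 0.706, for Lrp4. By the brightest probe set 6 of the 10 genes were lower in aged muscle and 4 higher, with a median change of -0.18 on the log2 scale, against 0.045 over all genes. The groups did not overlap on 1 of the 14 probe sets, a dim one of Chrng, where they did not on 13.2% of all probe sets. Each change below is in log2 signal, aged minus young, ± limma's standard error with 3 arrays in either group, and adjusted p-values are those of limma.

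Signals are those of Affymetrix's MAS5 algorithm on a linear scale. The table holds no detection calls, so brightness is given as a probe set's rank by mean log2 signal among all probe sets, whose median lay at a signal of 540. Of the 14 probe sets 5 lay above it: those of Chrna1, Chrnb1, Lrp4 and Musk and the brighter one of Dok7. Each probe set binds its target with its own strength, so the levels of different genes were not ranked, and differences or sums over probe sets were read only between arrays. Array medians lay between 635 and 832, and the ratio of 3 prime to 5 prime signal of the Gapdh and actin controls, a sign of RNA quality, was higher on the aged arrays by 0.58 on the log2 scale (exact two-sided permutation p = 0.1, the smallest that 3 against 3 allows), with aged replicate 53 the highest at 2.86 against 1.71 to 2.11 on the others. One fluidics station had processed the 3 young arrays together with aged replicate 51, and a second setup, under another protocol name, aged replicates 52 and 53. All 12 markers of muscle fibres were above the median brightness, and their summed signal was 2880000 to 3540000 in young and 1820000 to 2210000 in aged samples. Lists of other cell types moved as well. Of 6 fibroblast markers 3 fell, all of them collagen genes: Col1a1 at -5.71, Col1a2 at -4.62 and Col3a1 at -3.89. These carried most of the list's summed signal in young samples, which was 689000 to 924000, against 70600 to 80800 in aged samples. Lum at -1.91, Dcn at -0.73 and Pdgfra at -0.23 did not pass. All 3 fat cell markers on the array rose, with summed signals of 70400 to 82000 in young and 145000 to 248000 in aged samples. Of the 12 muscle fibre markers 3 fell: Myh2 at -2.38, Myh7 at -4.68 and Tnnt1 at -4.77. All 12 read lower, 10 of them at an unadjusted limma p under 0.05, against 9.6% of all genes. Myh4 was at -0.15 (adjusted p = 0.933). Of 5 satellite cell markers 1 fell, Cd34 at -1.65, with 3 lower in all and 2 higher (Cdh15 at 1.10 and Vcam1 at 0.49). Of 3 B cell markers 1 rose, and 0 of 4 endothelial and 0 of 4 macrophage markers passed with limma (0 also at an unadjusted p under 0.05). In bulk muscle fewer cells of a type and less RNA per cell cannot be told apart, and the part of these shifts in the values of the synaptic genes was not tested.

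**Figure D1:**
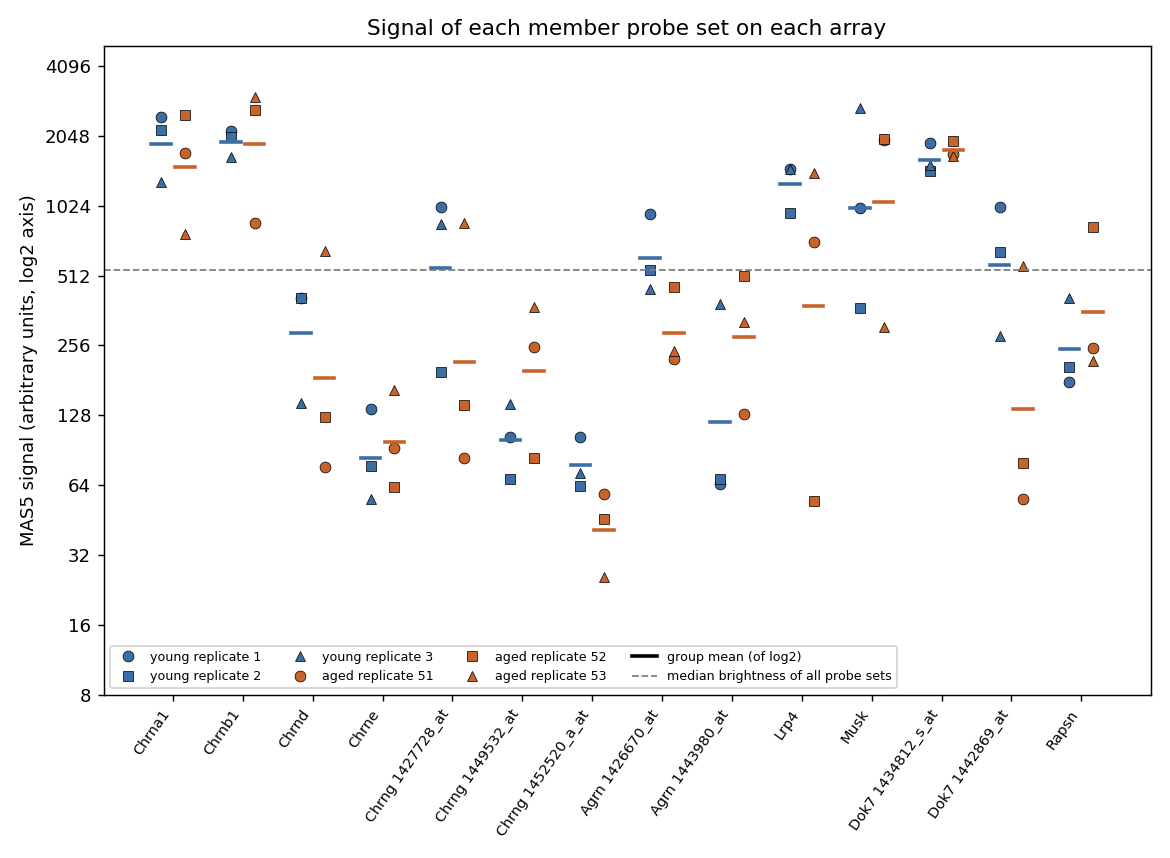
Signal of each of the 14 probe sets on each array, on a log2 axis in arbitrary MAS5 units; blue marks young and orange aged arrays, the short bars are group means of log2 signal (n = 3 each), and the dashed line is the median brightness of all probe sets. Young and aged arrays overlap on 13 of the 14 probe sets; heights are not comparable between probe sets.

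The alpha and beta subunits were the ones read above the median brightness, and neither passed the test. Chrna1, whose product carries the acetylcholine binding site, stood at 2470, 2170 and 1290 on the young arrays and at 1720, 2520 and 774 on the aged ones. Aged replicate 53 was the lowest of the 6 and aged replicate 52 the highest, so the groups overlapped. Its change was -0.35 ± 0.52 (adjusted p = 0.921), and the 95% interval ran from -1.42 to 0.73, which places the aged level between 0.374 and 1.65 times the young one. Chrnb1, the beta subunit, through which rapsyn holds the receptor, stood at 2140, 2020 and 1660 in young and at 860, 2640 and 3020 in aged muscle. The young values lay within 1.29-fold of each other, while the aged ones spanned 3.52-fold and lay on both sides of them. The change was -0.022 ± 0.49 (adjusted p = 0.996, interval -1.05 to 1.01). A doubling, 1 on the log2 scale, lies outside the limma interval for Chrna1 and just inside that for Chrnb1, while intervals from their own spread reached 1.26 and 1.6.

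The delta subunit was dim and uneven. Chrnd read 409, 408 and 145 on the young arrays and 76.3, 126 and 655 on the aged ones, with both the highest and the lowest value in aged muscle. Its change was -0.64 ± 1.24 (adjusted p = 0.942), and the interval from -3.22 to 1.93 spans changes of several fold in either direction.

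The fetal gamma and adult epsilon subunits are the pair that exchange places in the receptor when a fibre is innervated or loses its nerve. Chrne, the epsilon subunit, gave 136, 77 and 55.9 in young and 92.5, 62.9 and 164 in aged muscle, signals that only 2.60% of all probe sets lay below or at. Its change was 0.24 ± 0.87 (adjusted p = 0.972, interval -1.57 to 2.04). The brightest Chrng probe set, 1427728_at, stood at 1010, 196 and 856 in young and at 83.8, 142 and 862 in aged muscle. Young replicate 2 lay near the low aged arrays and aged replicate 53 near the high young ones, and the change was -1.35 ± 1.22 (adjusted p = 0.842, interval -3.89 to 1.19).

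The other Chrng probe sets did not give one direction. Probe set 1449532_at read 103, 67.8 and 143 in young and 252, 83.7 and 375 in aged muscle, a change of 1.00 ± 1.08 (adjusted p = 0.882). Probe set 1452520_a_at read 103, 63.4 and 72.5 in young and 58.3, 45.8 and 25.7 in aged muscle, a change of -0.93 ± 0.63 (adjusted p = 0.771). All 3 aged values of the latter lay below the young ones, at signals that 0.338% of probe sets lay below or at, the dimmest of the 14. The sign for the fetal subunit therefore depended on the probe set, with 2 of 3 lower in aged muscle.

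The balance of gamma over epsilon was also taken within each array, as log2 signal of the brightest Chrng probe set minus that of Chrne. This difference was 2.90, 1.35 and 3.94 on the young arrays and -0.14, 1.18 and 2.39 on the aged ones, with means of 2.73 ± 1.30 and 1.14 ± 1.27 (SD, n = 3 each). Aged minus young it was -1.58 (exact two-sided permutation test, p = 0.2, where 0.1 is the smallest possible). It rests on a Chrne probe set that is not shown to lie above background. The Chrng probe set was also below the median brightness, with 34.7% of probe sets below or at it. The value was -0.81 with a pseudocount of 219, -2.27 to -0.94 with 1 array left out, lowest without young replicate 2 and nearest to 0 without aged replicate 51, and -2.87 in the first station. Only its change between groups can be read, not its height, as the probe sets differ in strength. With all Chrng probe sets averaged it was -0.66 (exact permutation p = 0.3).

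The promoters of this pair are shown because the gamma and epsilon genes are the receptor's developmental switch, beside Chrna1, one of the subunits that both forms of the receptor share. They are the 250 bases before the RefSeq start of the gene, build GRCm38.p6, read 5′ to 3′ on the gene's strand, with matches in capitals to the E-box CANNTG, which myogenic factors such as Myog and Myod1 bind, and to the N-box CCGGAA, which GA-binding protein binds in synaptic nuclei. Chrng is at chr1:87205561-87205810 (plus strand), Chrne at chr11:70619195-70619444 (minus strand) and Chrna1 at chr2:73580339-73580588 (minus strand).
Chrng: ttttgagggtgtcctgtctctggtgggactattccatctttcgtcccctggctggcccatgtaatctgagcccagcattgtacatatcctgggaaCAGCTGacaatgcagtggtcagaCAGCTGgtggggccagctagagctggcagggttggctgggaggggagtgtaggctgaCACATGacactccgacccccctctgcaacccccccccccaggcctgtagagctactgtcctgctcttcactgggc
Chrne: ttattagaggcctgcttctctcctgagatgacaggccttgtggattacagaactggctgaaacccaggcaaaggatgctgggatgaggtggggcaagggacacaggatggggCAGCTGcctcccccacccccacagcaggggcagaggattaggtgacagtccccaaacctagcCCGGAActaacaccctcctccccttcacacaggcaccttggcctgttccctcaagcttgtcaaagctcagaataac
Chrna1: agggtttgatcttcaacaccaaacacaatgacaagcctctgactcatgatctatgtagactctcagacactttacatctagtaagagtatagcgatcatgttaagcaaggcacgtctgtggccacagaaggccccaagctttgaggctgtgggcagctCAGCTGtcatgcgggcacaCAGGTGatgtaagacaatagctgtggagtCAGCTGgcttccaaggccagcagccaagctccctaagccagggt
In these windows Chrng and Chrna1 each held 3 E-boxes, of which 2 were of the narrower form CAGCTG, a subset of CANNTG. Chrne held 1 E-box, also CAGCTG, and 1 N-box, whose first base lay 76 bases before the start. Promoters were found for 7 of the 10 genes, with 9 starts in all, and not for Chrnd, Lrp4 and Rapsn. Searching both strands, 7 of the 9 windows held an E-box, 4 held CAGCTG (those of Chrna1, Chrne, Chrng and Musk) and 1, that of Chrne, held an N-box. Among all 32851 windows of the same length 66.2% held an E-box, 13% held CAGCTG and 12% held an N-box. A match describes letters in the window and does not show that a factor binds there.

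The clustering genes, taken in the order of the signalling pathway, also did not differ past the test. For Agrn, which encodes agrin, the brighter probe set 1426670_at read 944, 540 and 449 on the young arrays and 223, 456 and 241 on the aged ones. Aged replicate 52 lay between the young values and the others below them, and the change was -1.08 ± 1.03 (adjusted p = 0.856, interval -3.22 to 1.07). From its own spread the interval was -2.35 to 0.20, and 96.6% of the probe sets nearest in brightness had a larger spread. Probe set 1443980_at read 64.7, 68.2 and 385 in young and 130, 509 and 323 in aged muscle, a change of 1.22 ± 1.2 (adjusted p = 0.862). The probe sets thus pointed in opposite directions, and with both averaged the change of Agrn was 0.070. Agrin that clusters receptors is a splice form made by motor neurons, whose nuclei lie outside the muscle, and the arrays do not tell splice forms apart here.

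Lrp4, the agrin receptor, had the smallest unadjusted limma p of the group. With an unmoderated linear model its p was 0.294, against 0.0792 for the brighter Agrn probe set. Lrp4 read 1470, 954 and 1470 on the young arrays and 712, 54.5 and 1410 on the aged ones, and aged replicate 52 alone lay far below the others. The change was -1.75 ± 0.99 (unadjusted p = 0.0915, adjusted p = 0.706, interval -3.80 to 0.31), and without aged replicate 52 it was -0.34. Its own spread was among the widest for its brightness, with 6.05% of the probe sets nearest in brightness above it. limma takes the spread of a probe set largely from others of like brightness, and an interval from the spread of Lrp4 alone ran from -5.76 to 2.27.

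Musk, the kinase at the centre of the pathway, varied within both groups. It read 1000, 372 and 2690 on the young arrays and 1970, 1980 and 306 on the aged ones, which is a 7.23-fold range in young and a 6.46-fold range in aged muscle. The groups covered nearly the same range, with the lowest value in aged and the highest in young muscle. The change was 0.083 ± 0.80 (adjusted p = 0.991, interval -1.57 to 1.74, or -3.30 to 3.47 from its own spread).

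Dok7, the adaptor that keeps Musk active, had the steadiest probe set of the group. Probe set 1434812_s_at read 1910, 1450 and 1540 in young and 1710, 1950 and 1680 in aged muscle, all 6 arrays within a narrow band. The change was 0.13 ± 0.45 (adjusted p = 0.969, interval -0.81 to 1.07), and from its own spread the interval was -0.25 to 0.52. Of the probe sets nearest in brightness 98.4% had a larger spread. The dimmer probe set 1442869_at read 1010, 644 and 280 in young and 55.7, 79.5 and 563 in aged muscle, a change of -2.06 ± 1.25 (adjusted p = 0.735). Aged replicate 53 lay among the young values there, and the brighter probe set is of the kind that can bind more than 1 transcript.

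Rapsn, which encodes rapsyn, read 178, 207 and 408 on the young arrays and 250, 832 and 220 on the aged ones. Aged replicate 52 was the highest and the other aged arrays lay among the young ones. Its change was 0.53 ± 1.17 (adjusted p = 0.950, interval -1.90 to 2.97), and without aged replicate 52 it was -0.076.

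**Figure D2:**
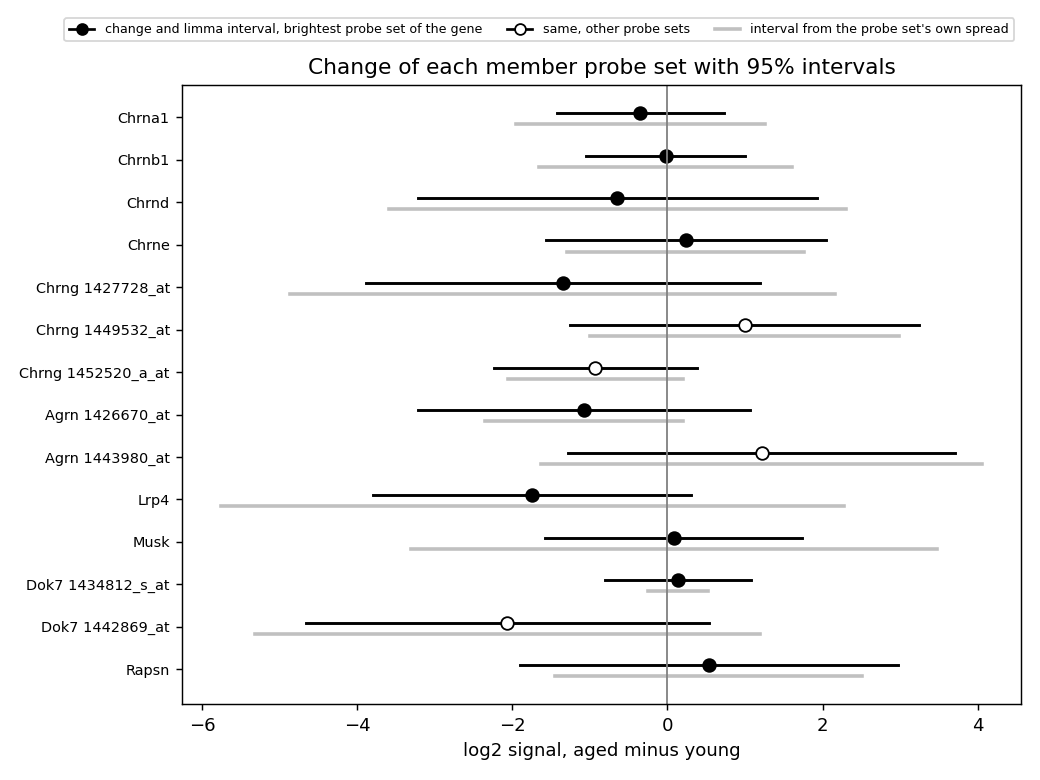
Change of each of the 14 probe sets, aged minus young in log2 signal, with limma's 95% interval in black and the interval from the probe set's own spread in grey (n = 3 per group); filled points are the brightest probe set of a gene and open points the others. Every black and grey interval includes 0, and that of the brighter Dok7 probe set is the narrowest at -0.81 to 1.07.

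The genes did not move as a block from array to array. Relative to each gene's own mean over the 6 arrays, the median of the 10 genes was 0.57 on young replicate 1, -0.075 and -0.026 on young replicates 2 and 3, and -0.12, 0.16 and 0.32 on aged replicates 51, 52 and 53. Young replicate 1 lay above the gene's own median for 8 of the 10 genes, and the other arrays for 3 to 6. Aged replicate 51 held the lowest value for 4 genes and the highest for none. Aged replicate 53 held the highest value for 3 genes and the lowest for 2: Chrnb1, Chrnd and Chrne were highest there, and Chrna1 and Musk were lowest, so subunits of one receptor went in opposite directions on the same array.

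**Figure D3:**
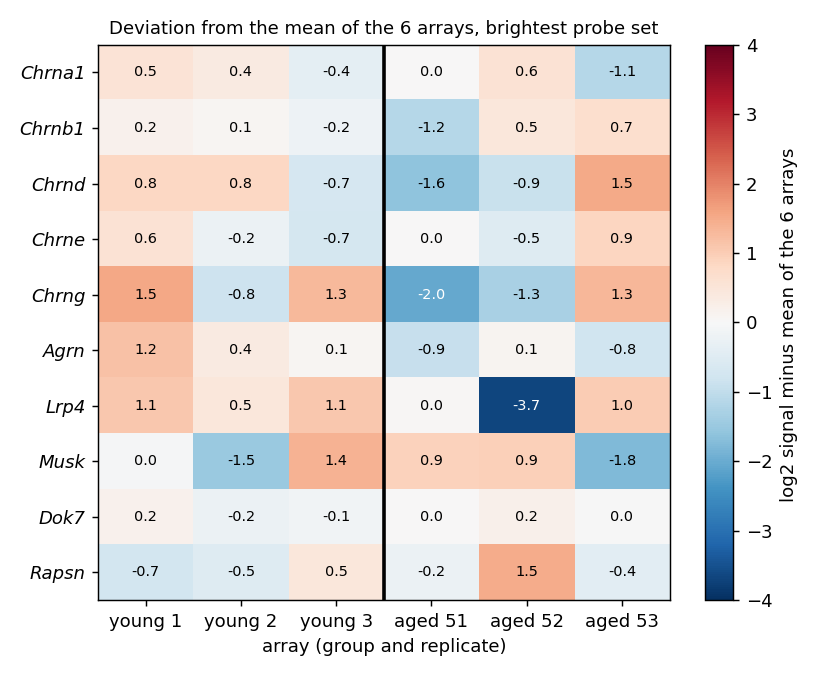
Log2 signal of the brightest probe set of each gene on each array (columns, 3 young and 3 aged) minus the gene's mean over the 6 arrays; red is higher and blue lower. No column is of one colour: on aged replicate 53 Chrnd and Chrne are high while Chrna1 and Musk are low, and Lrp4 is far below its mean on aged replicate 52 alone.

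The fluidics station separates the aged arrays. Within the first station aged replicate 51 stood against the 3 young arrays, and there 0 of the 10 genes passed, with the spread of aged muscle taken from the young arrays. Chrnb1 was at -1.17 (adjusted p = 0.544), Chrnd at -1.92, Chrng at -2.72 and Agrn at -1.45. Lrp4 was at -0.84 and Musk at 0.98. The remaining changes were smaller: Chrna1 at -0.15, Chrne at 0.15, Dok7 at 0.075 and Rapsn at 0.015. The median of the 5 receptor subunits was -0.35 over all arrays and -1.17 within this station, which rests on 1 aged array. With the ratio of 3 prime to 5 prime signal as a covariate 0 of the 10 genes passed, and the estimates spread out: Lrp4 was at -4 (adjusted p = 0.326), Chrng at -3.33 and Musk at 2.02.

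Other genes of the synapse also did not pass. Of 34 listed genes for acetylcholine breakdown, the synaptic matrix, the postsynaptic scaffold and synaptic transcription 32 were on the array, and 0 passed with limma. At an unadjusted limma p under 0.05 there were 4 of 32, 1 higher and 3 lower, against 9.6% of all genes. Their median change was -0.10, with 19 lower and 13 higher. Ache, acetylcholinesterase, read 413, 405 and 824 in young and 173, 259 and 142 in aged muscle, with the groups apart but the signals dim (-1.48 ± 1.14, adjusted p = 0.804). Colq, the collagen tail that anchors the enzyme in the synaptic matrix, read 573, 1380 and 846 in young and 1230, 1560 and 1150 in aged muscle (0.57 ± 0.60, adjusted p = 0.875).

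Utrn encodes utrophin, a relative of dystrophin found under the receptor clusters. It read 6340, 7280 and 10900 in young and 4950, 4850 and 7090 in aged muscle (-0.52 ± 0.30, adjusted p = 0.709), and its 3 probe sets ran from -0.52 to 1.59. Lama5, a laminin chain of basement membranes including that of the synapse, read 1650, 5280 and 8210 in young and 19100, 8690 and 9070 in aged muscle. All aged values were above the young ones (1.47 ± 0.43, adjusted p = 0.215), and its 3 probe sets ran from -0.0063 to 1.47. With 1 array left out it ran from 0.80 without young replicate 1 (adjusted p = 0.756) to 1.96 without young replicate 3 (adjusted p = 0.0405), where alone among these it passed. With its probe sets averaged it was at 0.85 (adjusted p = 0.830). Phldb2, which helps to guide transport to the synaptic membrane, read 6560, 4030 and 5880 in young and 1850, 1920 and 4170 in aged muscle (-1.13 ± 0.38, adjusted p = 0.330). Crkl, an adaptor that binds Dok7, was named after its values were seen. It read 2450, 2930 and 1100 in young and 218, 2910 and 2440 in aged muscle, with aged replicate 51 alone far below the others (-0.78 ± 0.74, adjusted p = 0.852). With the station in the fit, where the comparison rests on aged replicate 51, it was at -3.19 (adjusted p = 0.0445), and in the first station alone 0 synaptic genes passed.

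Genes known to rise after denervation did not rise together. Of 17 listed genes 16 were on the array, 1 rose, 0 fell and 15 did not pass, with 9 higher and 7 lower and a median of 0.22. At an unadjusted limma p under 0.05 there were 5 of 16, 3 higher and 2 lower, against 9.6% of all genes. The groups did not overlap for 6 of 16, against 13.2% of all probe sets. The gene that rose was Fbxo32, which encodes the muscle ubiquitin ligase atrogin-1 and rises in many forms of muscle wasting. It read 5390, 3950 and 1930 in young and 16000, 25900 and 37900 in aged muscle, with no overlap, a 7.26-fold difference (2.86 ± 0.35, adjusted p = 5.83e-05). Its 3 probe sets ran from 0.82 to 4.82 and 1 passed. It did not pass with the ratio of 3 prime to 5 prime signal as a covariate (2.30, adjusted p = 0.0625), without the trend of spread with brightness (adjusted p = 0.410) or with an unmoderated linear model (adjusted p = 0.431). Its companion ligase Trim63, chosen after its values were seen, read 21400, 15800 and 15800 in young and 15200, 22700 and 28600 in aged muscle (0.30 ± 0.26, adjusted p = 0.832).

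Others of the 5 included Myh8 and Hdac4, both named after their values were seen. Myh8, the perinatal myosin heavy chain, was dim and read 116, 128 and 37.8 in young and 810, 282 and 825 in aged muscle (2.80 ± 1.19, unadjusted p = 0.0286, adjusted p = 0.556). Hdac4, a deacetylase that represses Dach2 in denervated muscle, read 1280, 1210 and 1430 in young and 236, 744 and 286 in aged muscle (-1.82 ± 0.79, adjusted p = 0.577). The groups were apart for both, in opposite directions, and neither passed.

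Myog, the myogenic factor that acts on the receptor genes in denervated fibres, was lower on every aged array. It read 3970, 3150 and 1520 in young and 1240, 1060 and 268 in aged muscle, a change of -1.92 ± 0.62 that did not pass (unadjusted p = 0.00523, adjusted p = 0.292). The lowest value was on aged replicate 53, the array with the highest ratio of 3 prime to 5 prime signal. The change was -1.22 without that array, -1.11 within the first station and -0.42 with the ratio as a covariate. Runx1, a transcription factor raised in denervated muscle, read 1060, 2970 and 2860 in young and 6620, 4690 and 3140 in aged muscle (1.15 ± 0.43, adjusted p = 0.435), and its 6 probe sets ran from -2.15 to 2.44. Ncam1, the neural cell adhesion molecule that spreads over denervated fibres, read 1180, 2330 and 2460 in young and 1670, 2320 and 252 in aged muscle (-0.93 ± 0.68, adjusted p = 0.796). Without aged replicate 53 it was at 0.058. Gadd45a, a stress gene that denervated fibres express, read 2200, 1630 and 2160 in young and 2100, 2850 and 1900 in aged muscle, with the groups overlapping (0.18 ± 0.42, adjusted p = 0.952).

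Of the pair known to fall after denervation, Dach2, a repressor of Myog, read 336, 662 and 1170 in young and 788, 922 and 1480 in aged muscle (0.68 ± 0.73, adjusted p = 0.880). The groups overlapped, and Hdac9 was at -0.26 (adjusted p = 0.980). Neither passed.

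Most Schwann cell markers, the glia of the nerve, read lower in the same aged samples. Of 16 listed Schwann cell markers 12 were on the array, 2 fell, 0 rose and 10 did not pass, with 11 lower and 1 higher and a median of -0.77. At an unadjusted limma p under 0.05 there were 5 of 12, all lower, against 9.6% of all genes. The groups did not overlap for 5 of 12, against 13.2% of all probe sets. Sox10, named after its values were seen, counts as lower at -0.096, and its 3 probe sets ran from -0.096 to 0.42. The summed signal of the list was 65400 to 104000 in young and 20200 to 26900 in aged samples. The genes that fell, Mbp and Pmp22, carried most of it in young samples, and the other 10 summed to 22900 to 25400 in young and 11600 to 19000 in aged samples. Mbp, myelin basic protein, read 25900, 26400 and 44500 in young and 3970, 5240 and 3890 in aged muscle, 7.22-fold higher in young (-2.85 ± 0.27, adjusted p = 1.84e-06). Of its 8 probe sets 4 passed and the highest was at 1.27, and with those prone to bind several transcripts left out it did not pass (-1.41, adjusted p = 0.138). Pmp22, a protein of peripheral myelin that fibroblasts also express, read 21200, 16100 and 33800 in young and 3420, 5230 and 4670 in aged muscle (-2.37 ± 0.29, adjusted p = 5.95e-05). Without the trend of spread with brightness, or with an unmoderated model, neither passed (adjusted p 0.227 to 0.410).

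The Schwann cell marker S100b read 1700, 1950 and 1520 in young and 1200, 860 and 1320 in aged muscle (-0.63 ± 0.51, adjusted p = 0.819). Its groups did not overlap, but the change did not pass. Whether the amount of nerve in a sample bears on the values of the junction genes was not tested.

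**Figure D4:**
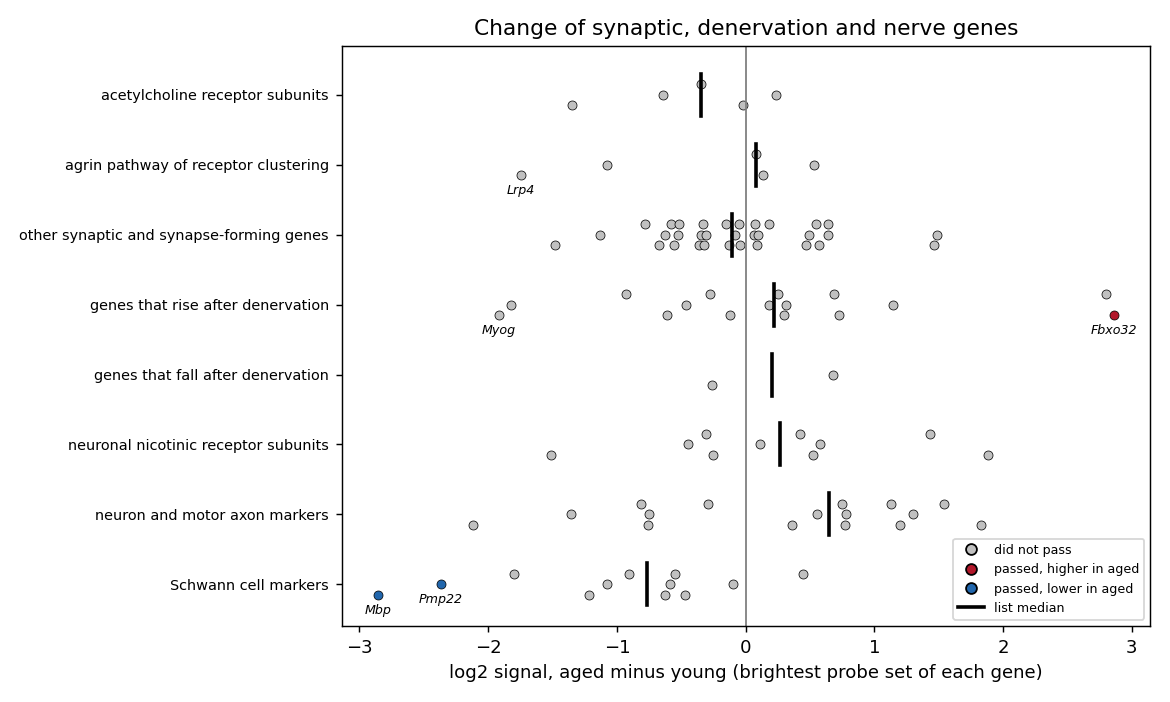
Change of the brightest probe set of each gene, aged minus young in log2 signal, by list, with 1 point per gene, the list median as a black bar, and colour for genes past an adjusted p of 0.05. Points of the receptor and clustering genes lie on both sides of 0 with none past the test, Fbxo32 alone passes among denervation genes, and Mbp and Pmp22 pass among Schwann cell markers.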

How the data were processed

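Total RNA was labelled with biotin and hybridised to 6 Mouse430_2 arrays, per the labels' protocols and the run settings. The authors deposited a linear intensity for each probe set. Per the submitters' processing notes these came from MAS5, of a version not given in the sources used here. Each array, after trimming 2% at each end, had a mean of 1500, so the deposited intensities had been scaled to it, which assumes like totals in all samples. The number of arrays limits the precision.

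Intensities were taken to log2, 64 control probe sets were left out, and no filter was set on dim probe sets. The comparison of aged with young arrays used limma 3.58.1 (R 4.3.3; lmFit, eBayes with a trend of spread with brightness, two-sided, Benjamini-Hochberg adjustment over 45037 probe sets, threshold 0.05). The prior spread had 16.9 degrees of freedom against 4 from the arrays, so each interval rests largely on probe sets of like brightness. The brightest probe set stood for a gene. All 14 member probe sets matched RefSeq by gene ID with the same symbol. The limma fit was tested on simulated data whose spread depended on brightness alone, so that test does not cover probe sets of unusual spread. Single contrasts used exact permutation tests. Plots and motif searches ran in Python 3.11.15, using numpy 2.4.6, pandas 2.3.3 and matplotlib 3.10.9.

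The members and lists were chosen with earlier results of these data known. The text names all members, up to 4 called genes of a list, otherwise those with the greatest change above the median signal until 2 are named, and a few fixed genes. Lists of other cell types are given by counts, with some genes named after their values were seen. Alternatives covered normalization, filters, a pseudocount of 219, array weights, the spread model, each array left out, station, RNA quality and the choice of probe sets.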

Additional observations from a re-analysis of the deposited data

How the results depend on the processing

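No paired analysis was possible because the replicate numbers of young (1 to 3) and aged (51 to 53) samples are not shared. In all 20 alternatives 0 members passed, among 5 genes with probe sets above the median and 3 among the brightest 25%. Chrnd, Chrng and Lrp4, by the brightest probe set, were below 0 in every alternative that tested them, but with 1 array left out Chrnd ran from -1.56 to -0.0065, Chrng from -2.34 to -0.66 and Lrp4 from -2.69 to -0.34. Chrnb1 was at 0.0036 with a pseudocount and 0.061 with array weights, and Musk at -0.021 after quantile normalization and -0.033 after median centring. With the RNA quality covariate Chrna1 was at 0.72, Chrne at -0.55, Ncam1 at 1.16, and the denervation list had 0 calls and a median of 0.37. Without the kinds of probe set that can bind more than 1 transcript, Dok7 was read by its dimmer probe set, at -2.06. The clustering median was then at -1.08. The denervation median was at 0.030, as it was among probe sets at or above the median brightness. With probe sets averaged Agrn was at 0.070, Dok7 at -0.97, Utrn at 0.44, Chrnb2 at -0.033, and the synaptic and denervation medians at 0.063 and 0.0026. The denervation list had 0 calls without the trend and with the unmoderated model, where 0 of all 45037 probe sets passed. With the station as a covariate or the first station alone the medians were -1.17 for subunits, 0.065 for synaptic and 0.034 for denervation genes, and with the covariate 1 synaptic gene passed. Of all probe sets 265 passed in the report's fit, 553 in the first station alone, 94 genes and unnamed probe sets with probe sets averaged, and 175 (without young replicate 1) to 416 (without aged replicate 53) with 1 array left out. The synaptic median was -0.32 among the brightest 25%. The cause of these shifts was not tested.

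With 1 array left out Chrna1 ran from -0.72 to 0.13, Chrnb1 from -0.36 to 0.55, Chrne from -0.13 to 0.59, Musk from -0.63 to 0.98, Rapsn from -0.076 to 0.90, Ncam1 from -1.54 to 0.058 and Snap25 from -2.19 to 0.40. The median ran from -0.63 to -0.0065 for subunits, from -0.63 to 0.17 for clustering genes, from -0.24 to -0.11 for other synaptic genes (0 to 1 called) and from 0.091 to 0.45 for denervation genes. Over all probe sets the median change was 0.076, against -0.0014 with quantile normalization and -0.040 with median centring. The unadjusted 95% interval of a member gene reached a median of 1.93 to each side, so changes smaller than this were often not detectable. Larger ones could also miss the adjusted threshold: Myh8, at 2.80 with an interval of 0.32 to 5.28, did not pass (limma adjusted p = 0.556).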

Other observations

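Transcripts of nerve cells and of the neuronal relatives of the receptor were mostly dim. Of 11 listed neuronal nicotinic subunits 10 were on the array, 4 above the median brightness, and 0 passed with limma (0 also at an unadjusted p under 0.05), with a median of 0.27. Chrna4 read 916, 1180 and 1230 in young and 2150, 1630 and 1120 in aged muscle (0.52 ± 0.53, adjusted p = 0.871), with aged replicate 53 among the young values. Chrnb2 read 394, 864 and 492 in young and 1260, 418 and 761 in aged muscle (0.42 ± 0.84, adjusted p = 0.944).

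All 16 markers of neurons and motor axons were on the array, 3 above the median brightness, and 0 passed with limma (0 also at an unadjusted p under 0.05), with 10 higher and 6 lower. Their summed signal was 6110 to 9390 in young and 6380 to 11100 in aged samples, and the groups overlapped. Chat, which makes acetylcholine, read 1190, 173 and 275 in young and 1040, 1020 and 1310 in aged muscle (1.54 ± 0.87, adjusted p = 0.706). Prph, the neuronal intermediate filament peripherin, read 1170, 1670 and 949 in young and 432, 1610 and 550 in aged muscle (-0.76 ± 0.68, adjusted p = 0.839). Snap25, a protein of transmitter release, was dim and ranged from 19.7 to 952 over the 6 arrays (-0.81 ± 1.35, adjusted p = 0.930).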
